A study of Mus musculus with 12 samples.

Results

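Unmarked plasma cells of mouse bone marrow were compared between 270 and 60 days after tamoxifen. The mice were BLTcre.mcl1fl/+ animals on a C57BL/6 background, and tamoxifen started a human CD4 reporter in their cells. Cells that carried the reporter (human CD4+) are called marked and cells without it (human CD4-) unmarked. All 3 libraries titled day 270 human CD4- and all 3 titled day 60 human CD4- were taken, 6 of the 12 libraries of the series. The other 6 are the marked cells of the same specimens, and they enter the fit and 1 side comparison. Every group therefore carried the Cre, 1 floxed Mcl1 allele and the tamoxifen treatment, and no group lacked them. The labels do not expand the name BLT, and the sources used here give neither the age of the mice nor the sort gates. Each unmarked library has a specimen number of its own in the labels, but nothing says that specimens were separate animals. The p-values therefore measure the spread between these specimens, pooled over the unmarked and marked libraries.

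Plasma cells are the antibody-secreting end stage of the B cell lineage. Prdm1, Irf4 and Xbp1 encode the transcription factors that set up this state and enlarge the endoplasmic reticulum, where antibody is folded. Many plasma cells settle in bone marrow, where signals through the receptor encoded by Tnfrsf17 (BCMA) sustain the anti-apoptotic protein Mcl1. Unmarked cells at either day can include cells formed after tamoxifen, and the comparison asks whether that population had the same transcripts late and early.

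The unmarked libraries held 10392304 to 14531419 reads over the 14219 genes of the table, and values are CPM, reads scaled to a common total. Jchain, which encodes the chain that joins IgM and IgA into polymers, took 19.0, 16.4 and 21.6% of reads at day 270 and 22.5, 24.6 and 21.7% at day 60. Its groups do not overlap, but the log2 fold change of -0.28 has a 95% interval of -1.42 to 0.86 (limma, adjusted p 1). The spread behind this interval is pooled over all 12 libraries. It includes the marked libraries, where Jchain took 7.90 to 31.3% of reads, so the interval does not describe the unmarked libraries alone. Defining plasma cell genes were at high levels in every library. Xbp1 had 6043, 5950 and 5952 CPM at day 270 and 5699, 4627 and 4745 CPM at day 60, and Sdc1, which encodes the plasma cell surface marker CD138, had 2342, 2138 and 1973 CPM at day 270 and 2143, 1944 and 1938 CPM at day 60. RNA of other cells was low but present and varied between libraries of a day, as the plot of summed marker RNA shows. The 20 neutrophil markers summed to 52.8, 270 and 251 CPM at day 270 and to 47.7, 330 and 28.6 CPM at day 60. A core of 12 macrophage markers, chosen after their values were seen, summed to 74.8, 244 and 199 CPM at day 270 and to 174, 50.8 and 47.1 CPM at day 60. Library 1 of day 270 was thus poor in macrophage RNA, and library 1 of day 60 rich in it. In bulk RNA, fewer cells of a type and less RNA per cell cannot be told apart.

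**Figure D1:**
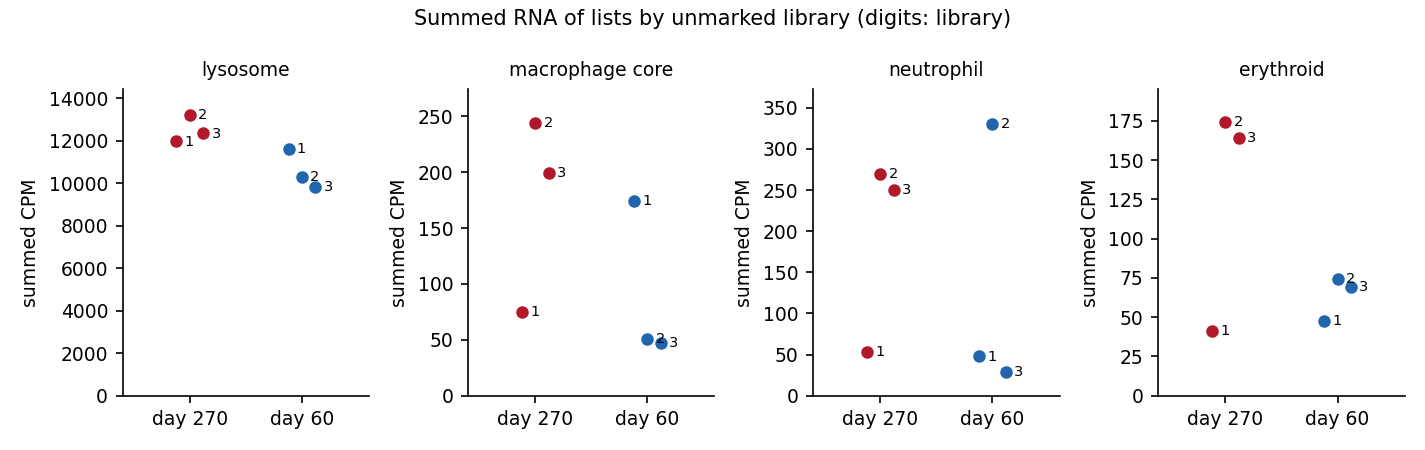
Summed CPM of the genes of 4 lists in the 6 unmarked libraries, day 270 left and day 60 right. Digits give the library within its day and the vertical axes start at 0. The lysosome sums of the days do not overlap (11970 to 13200 against 9821 to 11610 CPM), and the macrophage, neutrophil and erythroid sums overlap.

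No gene passed the test between the days. Of 12704 genes tested with limma on log2(CPM + 0.5) over all 12 libraries, 0 (0.00%) had a Benjamini-Hochberg adjusted p under 0.05, and the smallest adjusted p was 0.154. At an unadjusted p under 0.05 there were 378 genes (2.98%), of which 337 were higher (2.65%) and 41 lower (0.323%) at day 270. Other settings did not all give the same count: edgeR and limma-voom on recovered reads called 0 genes (311 and 469 at an unadjusted p under 0.05). DESeq2 called 11 (0.0983%), all higher at day 270: Spag6l, Bcl2l1, Mt2, Epcam, Mgll, Hmox1, Sema3f, Crim1, Cpq, Slc12a2 and Dsel. The fit of the 6 unmarked libraries alone called 4 (0.0335%), Hepacam2, Spag6l, Scd2 and Bcl2l1, all higher, and had 851 of 11931 genes at an unadjusted p under 0.05. Weighting libraries by their estimated quality called 79 (0.622%), 76 of them higher, with the largest weight, 4.95, on unmarked library 1 of day 270. The smallest weights, 0.206 and 0.347, were those of marked libraries 2 and 3 of day 270. Leaving these marked libraries out called 0 genes, with 788 of 13957 at an unadjusted p under 0.05. The main result of 0 calls thus rests on a spread that includes the marked libraries. Without library 1 of day 60 the count was 8 (0.0603%), Axl, Spag6l, Hmox1, Mt1, Sdc3, B3galnt1, Mt2 and Ccr9, all higher, and without any other single library it was 0. Libraries of different days were as alike as libraries of 1 day, with correlations across genes of log2 CPM of 0.938 to 0.974 between days, 0.946 to 0.972 within day 270 and 0.954 to 0.961 within day 60. The median standard error of a log2 fold change was 0.30 for the 7921 genes with a mean of at least 10 CPM, and the median 95% interval, not adjusted for the number of genes, reached 0.63 to either side.

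The scale of the libraries mattered for direction. The median log2 fold change of all genes was 0.12, with 66.5% of genes positive, and TMM scaling, which equalises the bulk of genes, moved the median by -0.11 and the positive share to 50.9%. All 3 day 270 libraries lay above all 3 of day 60 in 1322 genes (10.4% of those tested) and below them in 304 (2.39%). With TMM scaling these became 716 (5.64%) above and 608 (4.79%) below. These shares are the background against which the gene groups below are read, and list medians are given relative to 0.12.

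**Figure D2:**
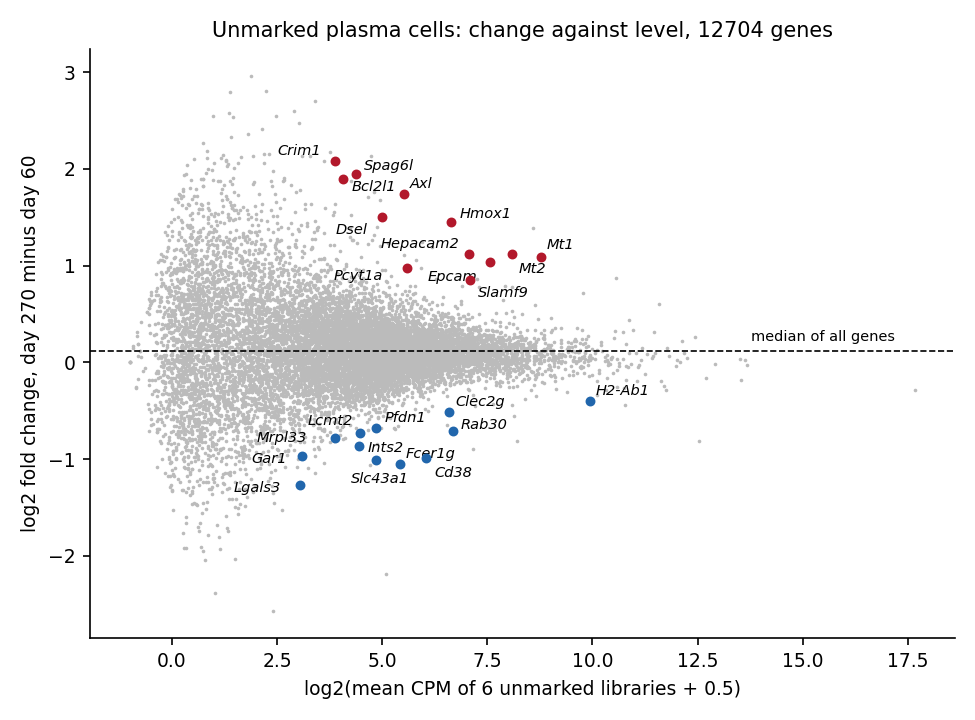
Log2 fold change (day 270 minus day 60, limma on log2(CPM + 0.5)) against the log2 mean level of the 6 unmarked libraries for the 12704 genes tested, in grey. Red points are the 12 genes above and blue points the 12 below that are described next. The dashed line is the median of all genes, 0.12. Genes at low levels scatter more widely than genes at high levels.

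The genes with the lowest p among those whose days did not overlap and whose higher mean was at least 10 CPM were, above at day 270, Spag6l, Bcl2l1, Hmox1, Hepacam2, Mt2, Epcam, Pcyt1a, Axl, Crim1, Dsel, Mt1 and Slamf9. Bcl2l1 (ENSMUSG00000007659, GRCm38 chromosome 2, 152780668 to 152831728, minus strand) encodes the anti-apoptotic protein Bcl-xL. It had 19.5, 26.4 and 32.6 CPM at day 270 and 8.60, 6.44 and 4.89 CPM at day 60. The ratio of the Bcl2l1 means was 3.94-fold and the log2 fold change 1.90 ± 0.38 (SE, limma, adjusted p 0.288). That the days do not overlap was a condition of the choice, for this gene and the others of the group. Spag6l (chromosome 2, 18694032 to 18750413), listed under ENSMUSG00000037708, which GENCODE M21 names Spag6, encodes a protein of the axoneme of cilia and sperm tails. It had 27.1, 31.8 and 37.4 CPM at day 270 and 13.2, 6.10 and 5.92 CPM at day 60 (1.95 ± 0.33, adjusted p 0.154), the lowest p of all genes. A related gene carries the other of these names, so how reads were shared between the pair is uncertain. Spag6l was called in 4 of the 23 alternative analyses, which are the 4 that called any gene.

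The surface genes of this group spanned a range of levels. Epcam (chromosome 17, 87635979 to 87651129), an adhesion molecule, had 242, 301 and 218 CPM at day 270 and 162, 88.6 and 127 CPM at day 60 (log2 fold change 1.04 ± 0.22, limma adjusted p 0.310). Hepacam2 (chromosome 6, 3457096 to 3498298), an adhesion molecule of the immunoglobulin superfamily, had 167, 217 and 160 CPM at day 270 and 101, 77.6 and 70.6 CPM at day 60 (1.12 ± 0.23, adjusted p 0.288). Slamf9 (chromosome 1, 172475358 to 172478575), a receptor of the SLAM family, had 151, 188 and 178 CPM at day 270 and 127, 85.0 and 79.8 CPM at day 60 (0.85 ± 0.19, adjusted p 0.325). The days were apart in all of these by the rule of choice, and day 60 library 1 lay closest to day 270. Axl, a receptor tyrosine kinase that macrophages also express, had 45.5, 85.4 and 71.7 CPM at day 270 and 43.7, 13.1 and 12.3 CPM at day 60 (1.74 ± 0.38, adjusted p 0.310), and its days overlapped with TMM scaling. Crim1, which encodes a transmembrane protein that binds bone morphogenetic proteins, had 23.8, 34.2 and 12.7 CPM at day 270 and 7.46, 4.29 and 3.37 CPM at day 60. Its ratio of means was the largest of the 12, 4.67-fold. Dsel, a relative of the epimerase that makes dermatan sulfate, had 47.0, 56.5 and 33.4 CPM at day 270 and 22.2, 20.4 and 8.05 CPM at day 60 (1.50 ± 0.33, adjusted p 0.310).

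Day 60 library 1 was the highest of its day in 11 of these 12 genes. Over all genes with a mean of at least 10 CPM, it was the highest of its day in 35.7%, library 2 in 28% and library 3 in 36.3%. The library numbers in the labels place library 1 of each day in a set apart from libraries 2 and 3, and the labels do not say what the numbers stand for. Within the first set Spag6l had a log2 difference of 1.01, Bcl2l1 of 1.14, Hmox1 of 0.42 and Axl of 0.06, whereas in the other libraries they had 2.43, 2.29, 1.96 and 2.58. The sign of these differences was fixed by the choice of genes whose days do not overlap.

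**Figure D3:**
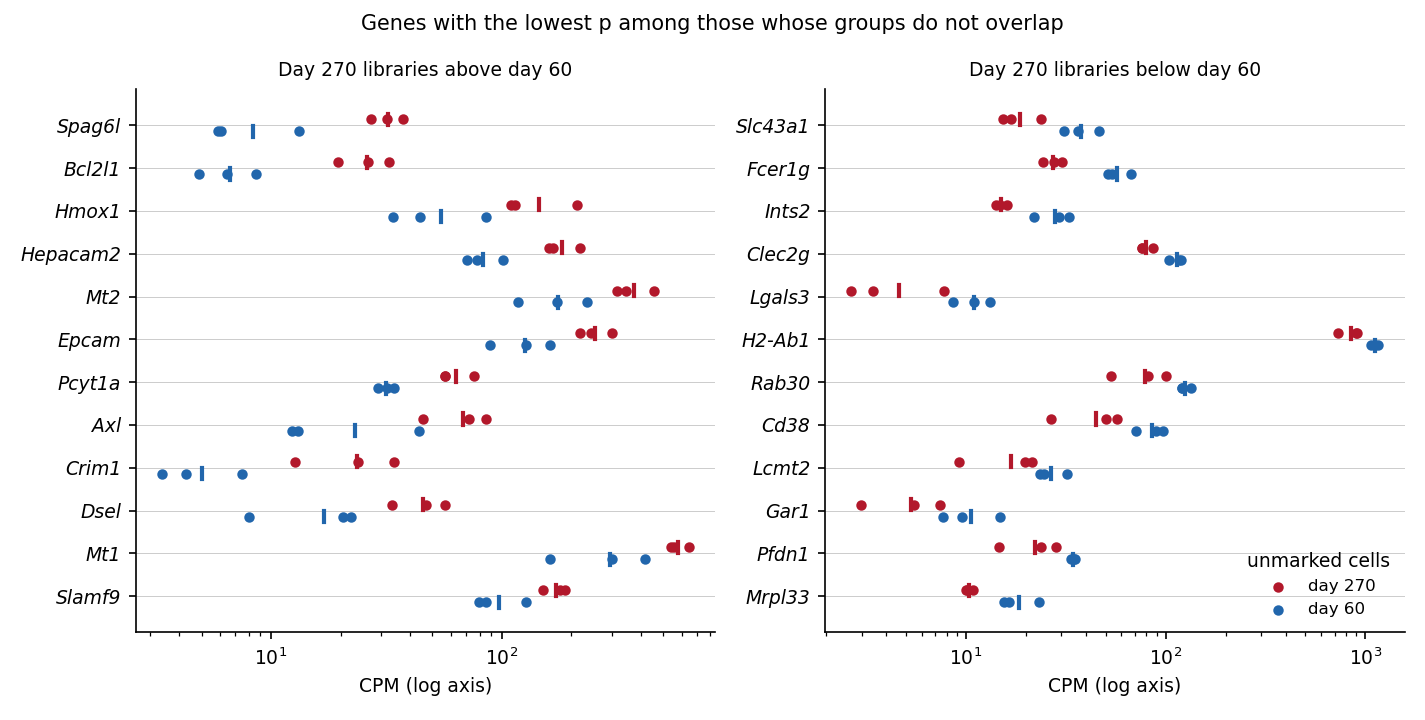
CPM on a log axis of the 12 genes with the lowest p above (left panel) and the 12 below (right panel) at day 270. Each point is an unmarked library, red for day 270 and blue for day 60, and vertical ticks are means of 3 libraries. The red and blue points of each gene do not overlap because the rule chose such genes, and for Spag6l, Hmox1 and Axl 1 day 60 library lies nearer to day 270 than the others.

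Below at day 270, the genes chosen in the same way were Slc43a1, Fcer1g, Ints2, Clec2g, Lgals3, H2-Ab1, Rab30, Cd38, Lcmt2, Gar1, Pfdn1 and Mrpl33. Slc43a1 (chromosome 2, 84838850 to 84863594), a transporter of large neutral amino acids, had 23.7, 16.8 and 15.3 CPM at day 270 and 30.9, 36.5 and 46.1 CPM at day 60 (log2 fold change -1.01 ± 0.30, limma adjusted p 0.852). Fcer1g (chromosome 1, 171229572 to 171234365), the signalling chain shared by several Fc receptors, had 30.1, 27.6 and 24.2 CPM at day 270 and 67.1, 53.8 and 51.2 CPM at day 60 (-1.05 ± 0.35, adjusted p 1). The day 270 mean was 0.492 of the day 60 mean for Slc43a1 and 0.476 for Fcer1g. Cd38 (chromosome 5, 43868553 to 43912375), a surface enzyme that consumes NAD and a marker of the B lineage, had 57.3, 26.6 and 50.1 CPM at day 270 and 89.7, 70.7 and 96.4 CPM at day 60 (-0.99 ± 0.45, adjusted p 1). The days of Cd38 were apart because the rule chose such genes. Rab30, a small GTPase of the Golgi, had 100.1, 81.8 and 53.4 CPM at day 270 and 134, 121 and 121 CPM at day 60 (-0.71 ± 0.32, adjusted p 1). The other genes of this group include Ints2, a subunit of the Integrator complex that processes small nuclear RNA, Gar1, a protein of the particles that pseudouridylate RNA, and Mrpl33, a protein of the mitochondrial ribosome. Their log2 fold changes ran from -1.27 (Lgals3) to -0.40 (H2-Ab1).

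Bcl2 family genes set the threshold for apoptosis. Of 14 tested, 0 were called and 4 (28.6%) had all day 270 libraries above day 60, against 10.4% of all genes; the same 4 stood apart with TMM scaling, against 5.64%. They were the anti-apoptotic Bcl2l1 and Bcl2 and the pro-apoptotic Pmaip1 (Noxa) and Bmf, so the members that stood apart have opposite known functions. Bcl2 had 76.4, 79.2 and 65.6 CPM at day 270 and 57.7, 60.5 and 56.8 CPM at day 60 (0.33 ± 0.23, limma adjusted p 1). Pmaip1, named after its values were seen, had 30.8, 34.9 and 25.1 CPM at day 270 and 23.0, 20.3 and 9.84 CPM at day 60 (0.83 ± 0.31, adjusted p 1). Mcl1, of which 1 allele is floxed in all groups, had 527, 590 and 550 CPM at day 270 and 538, 483 and 539 CPM at day 60. Its days overlapped, and its log2 fold change of 0.10 had a 95% interval of -0.25 to 0.44. The list median was 0.06 above that of all genes, so the list as a whole sat close to the rest. Bcl2l11, which encodes the pro-apoptotic protein Bim, had 68.5, 73.1 and 58.0 CPM at day 270 and 71.6, 50.5 and 52.4 CPM at day 60, with overlap.

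Metallothioneins are small cysteine-rich proteins that bind zinc and copper, and their genes are switched on by metals through the factor Mtf1. Mt2 (chromosome 8, 94172664 to 94173568) and Mt1 (chromosome 8, 94179082 to 94180327) are neighbours on the plus strand, and both were in the group above. The 250 bases before their RefSeq starts (GRCm38.p6, plus strand) are shown because both genes lay above at day 270, chr8:94172368-94172617 for Mt2 and chr8:94178839-94179088 for Mt1, with matches to the metal response element core in capitals. The letters searched were TGCACNC and TGCGCNC on both strands, and no matches shown overlap.
Mt2: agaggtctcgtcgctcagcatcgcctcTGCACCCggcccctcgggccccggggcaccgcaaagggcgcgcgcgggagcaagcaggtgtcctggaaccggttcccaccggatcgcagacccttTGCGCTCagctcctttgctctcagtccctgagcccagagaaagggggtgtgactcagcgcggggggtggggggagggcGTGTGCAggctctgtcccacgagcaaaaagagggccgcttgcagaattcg
Mt1: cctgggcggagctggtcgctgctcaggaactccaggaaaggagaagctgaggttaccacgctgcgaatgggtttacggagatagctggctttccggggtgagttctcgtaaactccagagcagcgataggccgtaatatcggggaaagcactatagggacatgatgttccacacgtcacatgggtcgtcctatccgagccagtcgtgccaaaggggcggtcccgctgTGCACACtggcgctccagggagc

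The Mt2 window held 3 matches and the Mt1 window 1. The windows follow RefSeq starts, which differ from the gene starts given above, and the Mt1 window reaches past its gene start. The counts therefore hold for these windows only and do not rank the promoters. Of 32536 promoter windows of this length, 21.5% held at least 1 match and 1.28% at least 3. These are matches of letters, not measured sites.

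Mt2 had 343, 456 and 316 CPM at day 270 and 234, 174 and 118 CPM at day 60 (log2 fold change 1.12 ± 0.23, limma adjusted p 0.288). Mt1 had 554, 646 and 542 CPM at day 270 and 417, 301 and 161 CPM at day 60 (1.09 ± 0.24, adjusted p 0.310). The day 270 mean was 2.12-fold that of day 60 for Mt2 and 1.98-fold for Mt1, and the lack of overlap between days was a condition of their choice. Of the 20 metallothionein and antioxidant genes, 6 (30%) lay above at day 270 and 0 below, against 10.4% and 2.39% of all genes. With TMM scaling 4 (20%) lay above, against 5.64%. The list median lay within 0.01 of that of all genes, so these genes stood apart from most of their list. Hmox1 (chromosome 8, 75093621 to 75100589), the heme-degrading enzyme heme oxygenase 1, had 114, 212 and 109 CPM at day 270 and 84.9, 44.1 and 33.8 CPM at day 60 (1.45 ± 0.29, adjusted p 0.288). Hmox1 is abundant in marrow macrophages, whose core markers were highest in day 270 libraries 2 and 3 and day 60 library 1, and their part in this result was not tested. Nox1, a superoxide-producing NADPH oxidase, had 85.3, 126 and 87.1 CPM at day 270 and 76.7, 44.7 and 45.6 CPM at day 60 (0.86 ± 0.23, adjusted p 0.757). The abundant thiol enzymes differed little: Prdx4, the peroxiredoxin of the endoplasmic reticulum, had a log2 fold change of -0.05 (95% interval -0.38 to 0.29) and thioredoxin, Txn1, of 0.06 (-0.24 to 0.37).

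Lipid genes whose days were apart included Pcyt1a, Scd2 and Scd1. Pcyt1a (chromosome 16, 32430921 to 32475070), the rate-limiting enzyme of the main route to phosphatidylcholine, had 56.9, 75.9 and 56.5 CPM at day 270 and 31.7, 34.0 and 29.1 CPM at day 60 (log2 fold change 0.98 ± 0.21, limma adjusted p 0.310). Scd2, a stearoyl-CoA desaturase that makes monounsaturated fatty acids, had 317, 384 and 337 CPM at day 270 and 226, 184 and 192 CPM at day 60 (0.78 ± 0.19, adjusted p 0.478). Scd1, its paralogue, named after its values were seen, had 84.1, 83.5 and 84.8 CPM at day 270 and 62.9, 26.4 and 26.3 CPM at day 60 (1.24 ± 0.32, adjusted p 0.654). All 3 genes were apart between days, Pcyt1a by the rule of choice, and the 3 day 270 values of Scd1 differed by under 2 CPM. Of the 25 sterol and fatty acid genes, 6 (24%) lay above at day 270 and 1 below, against 10.4% and 2.39% of all genes. With TMM scaling 4 (16%) lay above and 2 below, against 5.64% and 4.79%. Besides the desaturases Scd1 and Scd2, the genes apart without TMM scaling included Fdft1 (squalene synthase), Srebf2 and Fads2 above and Mvk (mevalonate kinase) below, so sterol genes lay on both sides. The days of Srebf2 and Fads2 overlapped with TMM scaling. Fdft1, Fads2 and Mvk were named after their values were seen. The regulators were close to the other genes: Srebf2 had a log2 fold change of 0.16 (95% interval -0.23 to 0.55) and Srebf1 had -0.00 (-0.56 to 0.55), and Fasn, fatty acid synthase, had 0.01 (-0.60 to 0.62). Mgll, which releases fatty acids from monoacylglycerol and was chosen after its values were seen, had 71.1, 86.6 and 67.0 CPM at day 270 and 42.3, 32.5 and 32.3 CPM at day 60 (1.06 ± 0.26, adjusted p 0.478).

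Lysosome genes, which encode the enzymes and membrane proteins of the degradative compartment, had 21 of 30 members above the median log2 fold change of all genes. Of the 30, 0 were called, 13 (43.3%) lay above at day 270 and 1 below, against 10.4% and 2.39% of all genes. With TMM scaling 8 (26.7%) lay above and 1 below, against 5.64% and 4.79%. Their summed level was 11970, 13200 and 12350 CPM at day 270 and 11610, 10290 and 9821 CPM at day 60, so the groups were apart with day 60 library 1 nearest to day 270. The gap was narrow, and the sums were not recomputed with TMM scaling. The list median was 0.13 above that of all genes, a small shift. Ctsb (cathepsin B) had 1767, 1942 and 1919 CPM at day 270 and 1645, 1526 and 1389 CPM at day 60 (0.31 ± 0.15, limma adjusted p 1), and its days overlapped with TMM scaling. Grn, which encodes progranulin, had 844, 1004 and 813 CPM at day 270 and 757, 631 and 681 CPM at day 60 (0.36 ± 0.17, adjusted p 1). Genes of the same list named after their values were seen had larger differences: Ctsl (cathepsin L) had 72.4, 76.9 and 90.3 CPM at day 270 and 50.6, 53.2 and 47.6 CPM at day 60 (0.65 ± 0.24, adjusted p 1). Lipa, the lysosomal acid lipase, had a log2 fold change of 0.63 and Hexa, a hexosaminidase subunit, of 0.58. Ctss, a cathepsin that trims the MHC class II invariant chain and the most abundant of the list, had 2676, 3284 and 3335 CPM at day 270 and 3048, 2416 and 2081 CPM at day 60, with overlap. Ctsh (cathepsin H), named after its values were seen, was the member below at day 270, with 143, 90.8 and 140 CPM against 147, 183 and 174 CPM at day 60. Ggh, a lysosomal hydrolase of folate polyglutamates outside the list and also chosen after its values were seen, had 397, 595 and 660 CPM at day 270 and 362, 156 and 152 CPM at day 60 (1.39 ± 0.36, adjusted p 0.642). Macrophages are rich in lysosomal RNA too, and the part of macrophage RNA in the lysosome values was not tested.

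**Figure D4:**
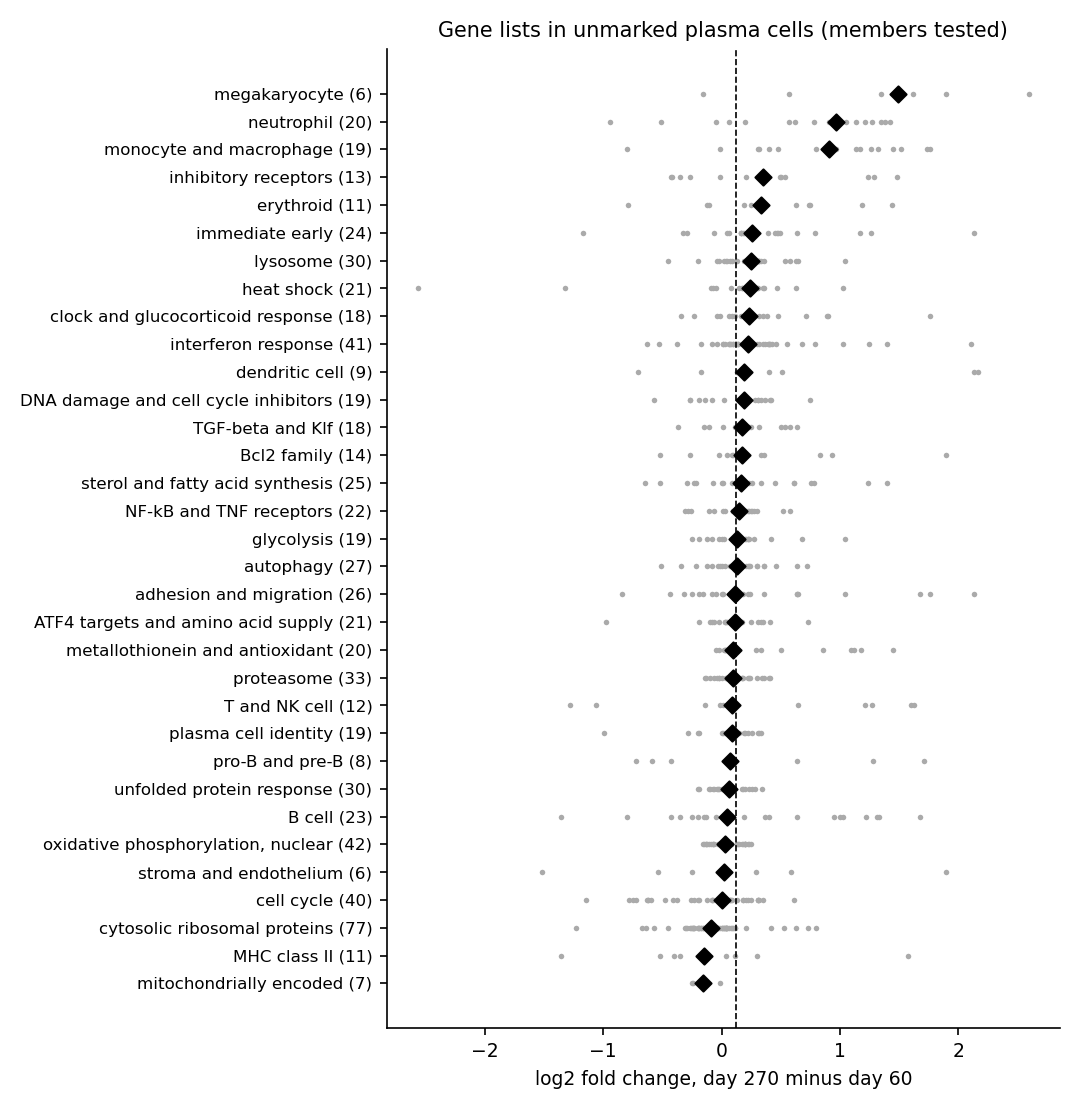
Log2 fold change (day 270 minus day 60) of the members tested of each list with at least 5, as grey points, and the list median as a black diamond. The number tested stands in brackets and the dashed line is the median of all genes, 0.12. Lists of other bone marrow cells (megakaryocyte, neutrophil, macrophage) have the highest medians and wide scatter, and mitochondrially encoded, MHC class II and ribosomal protein genes the lowest.

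Genes of homing and adhesion decide where plasma cells lodge. Of 26 tested, 5 (19.2%) lay above at day 270 and 1 below, against 10.4% and 2.39% of all genes. With TMM scaling 4 (15.4%) lay above and 1 below, against 5.64% and 4.79%. Ccr9, a chemokine receptor for gut homing, had 35.4, 37.4 and 46.3 CPM at day 270 and 29.6, 4.89 and 4.20 CPM at day 60 (log2 fold change 2.13 ± 0.60, limma adjusted p 0.770). Itgb7, the integrin chain that pairs for gut homing, had 301, 271 and 270 CPM at day 270 and 251, 165 and 137 CPM at day 60 (0.65 ± 0.24, adjusted p 1). The days of Itgb7 overlapped with TMM scaling. Ccr9 and Itgb7 were named after their values were seen, and in both of them day 60 library 1 lay much closer to day 270 than libraries 2 and 3 did. Cldn7, a claudin that binds the protein of Epcam, had 37.7, 51.8 and 57.4 CPM at day 270 and 27.5, 18.7 and 16.0 CPM at day 60 (1.23 ± 0.30, adjusted p 0.478), also chosen after the fact. Cxcr4, the receptor that retains plasma cells in marrow, had 305, 274 and 320 CPM at day 270 and 315, 376 and 338 CPM at day 60, with overlap (-0.19, 95% interval -0.62 to 0.23). Ccr10, a receptor of IgA plasma cells, had 124, 65.0 and 141 CPM at day 270 and 150, 84.8 and 67.4 CPM at day 60. Cxcr3, a receptor for chemokines of inflamed tissue, had 32.3, 9.53 and 24.7 CPM at day 270 and 33.8, 37.3 and 36.4 CPM at day 60 (-0.84 ± 0.67, adjusted p 1), with library 1 of both days nearly equal. The integrin genes Itgal and Itgb2 and Cd44 had log2 fold changes of 0.22, 0.09 and 0.07.

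MHC class II genes, whose products show antigen to T cells and which are shut down as plasma cells mature, lay mostly on the lower side by log2 fold change. Of 11, 0 were called and 3 lay below at day 270 and 0 above, against 2.39% and 10.4% of all genes, and the same counts held with TMM scaling. The list median was 0.27 below that of all genes, with 9 members below that median and 2 above it. Log2 fold changes ran from -1.36 to 1.58. The list summed to 13720, 14120 and 13190 CPM at day 270 and to 15810, 12780 and 12980 CPM at day 60, with overlap. H2-Ab1 (ENSMUSG00000073421, chromosome 17, 34257689 to 34269419), the beta chain of I-A, had 902, 730 and 898 CPM at day 270 and 1061, 1111 and 1161 CPM at day 60 (log2 fold change -0.40 ± 0.18, limma adjusted p 1). H2-Aa, its alpha partner, had 390, 287 and 404 CPM at day 270 and 465, 458 and 435 CPM at day 60 (-0.35 ± 0.32, adjusted p 1). H2-DMb1, which helps load peptides and was named after its values were seen, had 29.3, 26.0 and 28.4 CPM at day 270 and 40.1, 36.1 and 44.9 CPM at day 60. All 3 were apart between days by a modest margin, H2-Ab1 by the rule of choice, and day 270 library 2 was the lowest in each. H2-Eb1, for the I-E beta chain, had 521, 399 and 556 CPM at day 270 and 534, 544 and 528 CPM at day 60, with overlap. Cd74, whose protein escorts class II molecules, overlapped between days (0.04, 95% interval -0.41 to 0.49).

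B cell markers had a list median 0.07 below that of all genes. Of 23, 4 (17.4%) lay above at day 270 and 0 below, against 10.4% and 2.39% of all genes. With TMM scaling 4 lay above and 3 below, against 5.64% and 4.79%. Those above included the low-level genes Pax5, Cd72 and Bcl6, of which Pax5 reached the highest level, 4.17 CPM. Pax5, Cd72 and Bcl6 were named after their values were seen. The 23 genes summed to 3018, 3042 and 2787 CPM at day 270 and 2964, 2785 and 2765 CPM at day 60, with overlap. Cell cycle genes summed to 725, 649 and 632 CPM at day 270 and 650, 660 and 688 CPM at day 60, also with overlap. Of 40 tested 3 (7.5%) lay above and 2 below, against 10.4% and 2.39% of all genes. Those below were the mitotic genes Aurka (log2 fold change -0.78) and Tpx2 (-0.63), and those above were the replication helicase genes Mcm2, Mcm5 and Mcm6 (0.31, 0.32 and 0.21), of which only Mcm2 stayed above with TMM scaling. Aurka and Tpx2 were named after their values were seen. Mki67, which encodes Ki-67, had 23.5, 68.9 and 23.4 CPM at day 270 and 34.4, 30.4 and 63.5 CPM at day 60, with 1 high library on each day. Top2a, a topoisomerase of dividing cells, had 26.5, 24.7 and 25.5 CPM at day 270 and 21.8, 28.3 and 32.0 CPM at day 60, with overlap.

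Inhibitory receptor genes had 4 of 13 (30.8%) above at day 270 and 1 below, against 10.4% and 2.39% of all genes. With TMM scaling there were 3 of each, against 5.64% and 4.79%. The list median was 0.24 above that of all genes. Pdcd1, which encodes PD-1, had 5.34, 5.39 and 5.59 CPM at day 270 and 1.67, 1.37 and 1.86 CPM at day 60 (log2 fold change 1.48 ± 0.65, limma adjusted p 1), with little spread within a day but few reads. Cd274, which encodes its ligand PD-L1, had 77.5, 88.5 and 66.7 CPM at day 270 and 57.8, 50.1 and 50.6 CPM at day 60 (0.54 ± 0.19, adjusted p 1). Both were named after their values were seen. Tigit, another inhibitory receptor, had 63.9, 41.4 and 52.2 CPM at day 270 and 72.8, 64.7 and 61.3 CPM at day 60, with overlap. With TMM scaling its day 270 libraries lay below those of day 60.

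Genes of plasma cell identity and secretion differed little beyond the spread. Of 19 identity genes, 1 (5.26%) lay above (Xbp1) and 2 below (Cd38 and Jchain), against 10.4% and 2.39% of all genes. With TMM scaling 0 lay above and 2 below, against 5.64% and 4.79%. Xbp1 had a log2 fold change of 0.26 (95% interval -0.14 to 0.65) and Sdc1 of 0.10 (-0.25 to 0.45). Irf4 had 1045, 1061 and 804 CPM at day 270 and 835, 718 and 742 CPM at day 60 (0.33, 95% interval -0.05 to 0.72). Prdm1 had 250, 335 and 180 CPM at day 270 and 217, 181 and 203 CPM at day 60 (0.31, -0.17 to 0.79). Tnfrsf17, the BCMA gene, had 343, 359 and 332 CPM at day 270 and 369, 295 and 275 CPM at day 60 (0.15, -0.19 to 0.50). The days overlapped in Irf4, Prdm1 and Tnfrsf17. Mzb1, a chaperone of antibody assembly, had a log2 fold change of -0.00 (-0.42 to 0.41) and Edem1, of endoplasmic reticulum degradation, of 0.07 (-0.28 to 0.43). Of 30 unfolded protein response genes 3 (10%) lay above, the share of all genes, and their median was 0.06 below that of all genes. Sel1l, a scaffold of endoplasmic reticulum degradation named after its values were seen, had 2269, 2546 and 1903 CPM at day 270 and 1788, 1673 and 1826 CPM at day 60 (0.34 ± 0.20, limma adjusted p 1).

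Ly6a, the gene of the surface protein Sca-1, had 1823, 2049 and 2548 CPM at day 270 and 1753, 1663 and 1309 CPM at day 60 (log2 fold change 0.44 ± 0.18, limma adjusted p 1), and its days overlapped with TMM scaling. Slc12a2, a sodium, potassium and chloride cotransporter, had 301, 400 and 224 CPM at day 270 and 190, 144 and 191 CPM at day 60 (0.79 ± 0.20, adjusted p 0.642). The days of Slc12a2 were apart, with the smallest gap at day 270 library 3. Cyp2b10, a cytochrome P450, had 3.87, 8.28 and 5.59 CPM at day 270 and 0.0878, 1.20 and 0 CPM at day 60 (2.96 ± 0.71, adjusted p 0.478). It is a low-level gene, and the fold on this scale depends on the added 0.5. Cd28, a costimulatory receptor that plasma cells keep, had 209, 218 and 279 CPM at day 270 and 213, 187 and 163 CPM at day 60, with overlap. Cd93, a surface receptor linked to plasma cell persistence in marrow, had 150, 167 and 141 CPM at day 270 and 135, 144 and 158 CPM at day 60, with overlap.

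Heat shock genes split. Hspa1b, which encodes an inducible Hsp70, had 2.03, 1.25 and 0.224 CPM at day 270 and 6.06, 8.76 and 10.5 CPM at day 60 (log2 fold change -2.57 ± 0.70, limma adjusted p 0.757). Hspa1a, its near copy, had 0.644, 0 and 0 CPM at day 270 and 1.14, 0.859 and 1.51 CPM at day 60. The days were apart in both genes, and reads of the pair may be split or pooled by the authors' counting. The 250 bases before the start of Hspa1b (chr17:34959239-34959488, RefSeq, GRCm38.p6, minus strand) are shown because they are shared almost whole by the pair and hold the core heat shock element, searched as GAANNTTC on both strands, in capitals.
Hspa1b: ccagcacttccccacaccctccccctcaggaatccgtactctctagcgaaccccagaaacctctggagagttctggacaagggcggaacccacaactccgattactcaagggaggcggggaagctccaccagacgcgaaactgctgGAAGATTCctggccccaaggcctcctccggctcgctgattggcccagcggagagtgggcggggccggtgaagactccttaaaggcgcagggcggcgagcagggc

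The matching window of Hspa1a had 247 of 250 bases identical (98.8%), and 6.72% of 32536 promoter windows held this element. The constitutive Hspa8 had 203, 210 and 198 CPM at day 270 and 177, 165 and 174 CPM at day 60, on the other side from Hspa1b (0.24 ± 0.18, adjusted p 1). Of 21 heat shock genes 3 (14.3%) lay above and 2 below, against 10.4% and 2.39% of all genes. With TMM scaling 2 (9.52%) lay above and 3 below, against 5.64% and 4.79%.

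The remaining lists are set against the shares of all genes, 10.4% above at day 270 and 2.39% below. With TMM scaling these shares were 5.64% and 4.79%. Among these lists, 7 of 41 interferon response genes (17.1%) lay above at day 270 and 0 below, and 3 (7.32%) above with TMM scaling. Of these Irf1, a transcription factor of the response, had 81.3, 92.0 and 103 CPM at day 270 and 70.1, 68.9 and 69.1 CPM at day 60, whereas Rsad2 and Slfn5 stayed under 5 CPM in all 6 libraries. Proteasome genes had 7 of 33 (21.2%) above and 2 (6.06%) with TMM scaling, with log2 fold changes of 0.12 to 0.41. Psmd1, a subunit of the regulatory particle, had 146, 133 and 125 CPM at day 270 and 97.7, 113 and 95.2 CPM at day 60. Autophagy genes had 4 of 27 (14.8%) above and 1 (3.70%) with TMM scaling. Sqstm1, the autophagy receptor p62, had 623, 673 and 565 CPM at day 270 and 520, 476 and 457 CPM at day 60 (0.36 ± 0.14, limma adjusted p 1). Birc3, an inhibitor of apoptosis induced by NF-kB, had 61.5, 61.3 and 70.5 CPM at day 270 and 48.1, 41.6 and 44.5 CPM at day 60 (0.52 ± 0.21, adjusted p 1). Cytosolic ribosomal protein genes had 71 of 77 below the median of all genes, with a list median 0.21 below it, and 3 below and 1 above at day 270 by non-overlap. The 7 mitochondrially encoded genes tested all had negative log2 fold changes, between -0.25 and -0.01, and 0 of them were apart between days. Several of these genes were named after their values were seen.

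Macrophage and neutrophil markers had list medians 0.80 and 0.86 above that of all genes. However, 3 of 19 macrophage markers (15.8%) and 0 of 20 neutrophil markers lay above at day 270 without overlap, against 10.4% of all genes. Vcam1, which marrow macrophages and stroma express, had 12.1, 63.4 and 54.4 CPM at day 270 and 19.8, 6.87 and 7.16 CPM at day 60. C1qa, a complement chain made by macrophages, had 11.6, 31.5 and 31.5 CPM at day 270 and 31.1, 4.89 and 4.75 CPM at day 60. In both genes library 1 was the lowest of day 270 and the highest of day 60. Vcam1 and C1qa were named after their values were seen, as was the macrophage core, so their likeness to the core sums is no separate evidence. Log2 fold changes over the macrophage list ran from -0.80 to 1.76. Ly6c2, which plasma cells also express, had 1423, 1973 and 2389 CPM at day 270 and 1636, 969 and 698 CPM at day 60, with overlap. The part of macrophage RNA in the day differences of other genes was not tested.

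The marked cells of the same specimens give the same contrast in other libraries. These share specimens with the unmarked libraries and entered the filter, the standard errors and the p-values by which the 24 genes were chosen. All 12 genes above at day 270 in unmarked cells had a positive log2 fold change in marked cells, and 8 of the 12 genes below had a negative one, where of all genes tested 52% were positive and 48% negative in marked cells. Across the genes with a mean of at least 10 CPM, the day differences of the populations had a Pearson r of 0.26 and a Spearman rho of 0.22, given as a description over genes that are not independent. In marked cells 4 genes passed limma (0.0315% of those tested): Hepacam2, Slamf9 and Scd1 higher, and Fas lower at day 270. Fas, a death receptor, had a log2 fold change of -3.26 in marked cells (adjusted p 0.0263). In unmarked cells Fas had 16.8, 26.8 and 19.6 CPM at day 270 and 20.9, 23.2 and 33.0 CPM at day 60, with overlap (-0.28, 95% interval -1.37 to 0.80). The difference of the 2 day effects of Fas was 2.98 ± 0.73, which did not pass over all genes by limma (adjusted p 1) and was called by DESeq2 on recovered reads.

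The test of that difference called 0 of 12704 genes by limma (0.00%), with 387 at an unadjusted p under 0.05, and 5 genes by DESeq2, Fas among them. Among the 24 genes above, Slc43a1 had -1.01 in unmarked and 0.11 in marked cells, a difference of -1.12 ± 0.42 (limma adjusted p 1). Spag6l had 1.95 in unmarked and 0.66 in marked cells, a difference of 1.29 ± 0.46 (adjusted p 1), and Lgals3 had -1.27 and 0.61. A pair of marked libraries held much RNA resembling ribosomal RNA, 21.8% of reads in day 270 library 2 and 6.80% in day 60 library 2, against 0.520 to 2.17% in the unmarked libraries, and its part in the marked values was not tested.

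**Figure D5:**
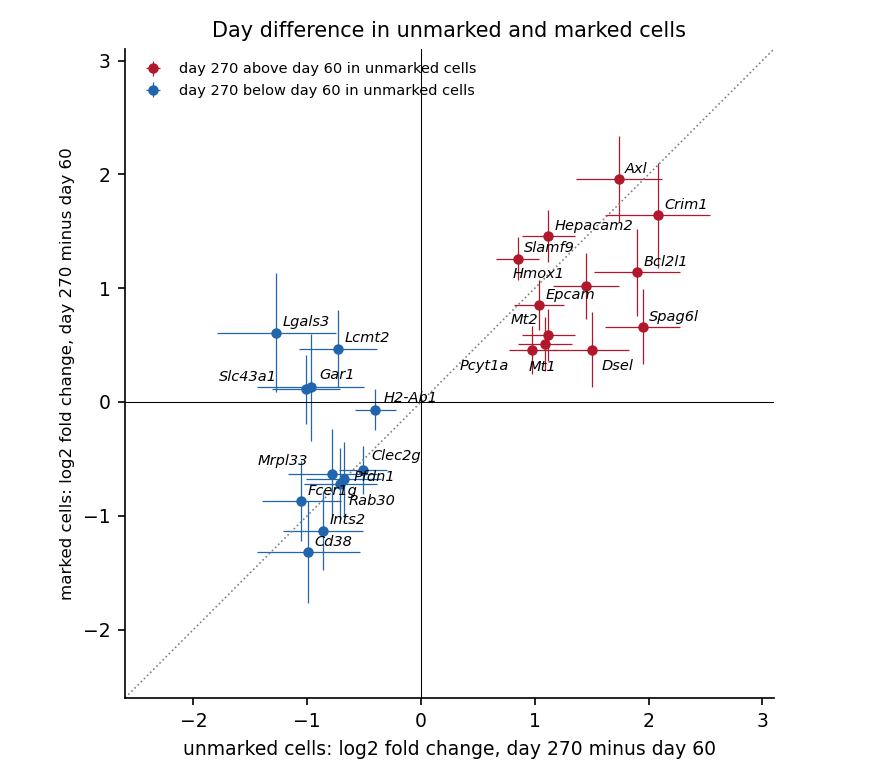
Log2 fold change, day 270 minus day 60, in marked cells (vertical) against unmarked cells (horizontal) for the 12 genes above and the 12 below at day 270 in unmarked cells. Bars are standard errors from limma and the dotted line marks equal values. All 12 red points lie above 0 on the vertical axis, and 8 of the 12 blue points lie below it.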

How the data were processed

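RNA of bone marrow plasma cells was isolated with RNeasy Micro kits and made into TruSeq RNA libraries, per the labels' protocols. Per the submitters' processing notes the build was GRCm38 and limma was used; an aligner, a read counter and an annotation are not given in the sources used. The deposited table gives CPM for 14219 genes in 12 libraries, with the authors' log2 fold changes and p-values for other contrasts beside them, which were not used. A deposited count table of 230 genes served as a check. CPM times 1 total per library gave whole reads (all 151331 values under 1000 reads within 0.05), and matched the authors' counts in 100% of cells. Totals cover the table's genes, which hold 0 immunoglobulin chain genes, so they are not full depth.

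CPM were tested as log2(CPM + 0.5) with limma 3.58.1 (trended prior, R 4.3.3), with 1 coefficient per group over all 12 libraries, 8 residual degrees of freedom, and 12704 genes past filterByExpr of edgeR (minimum 10 reads) on the recovered reads; calls needed a Benjamini-Hochberg adjusted p under 0.05, two-sided. The 23 alternatives included edgeR 4.0.16, DESeq2 1.42.0 and limma-voom on recovered reads, other scalings, filters and pseudocounts, blocks, library quality weights and leaving out each library. A list was described by its counts and median, without a set test. Named genes were the 12 per direction of lowest p with groups apart and a higher mean of at least 10 CPM, up to 4 most abundant members of described lists and a fixed set. All others were chosen after their values were seen, also where the text does not say so. Members and lists were chosen with earlier results of these data known. The fit was tested on simulated data. GENCODE M21 gave positions for 14165 identifiers; 19 symbols turned into dates were restored from it. Some list members are not reported here by name.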

Additional observations from a re-analysis of the deposited data

How the results depend on the processing

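The main test called 0 genes, and so did every alternative except the fit of the 6 unmarked libraries alone (4, all higher), DESeq2 (11, all higher), library quality weights (79, of which 76 higher and 3 lower) and the fits that left out 1 library (0 to 8, all higher, with 8 only without library 1 of day 60). The difference of the day effects called 5 genes by DESeq2. Why the counts differ was not tested. Same-numbered libraries of the days had residual correlations of 0.0046, -0.156 and -0.197, and differently numbered ones of -0.051 to 0.194. Deviations from means of 3 libraries depend on each other, so these values cannot settle whether the replicate number pairs the libraries. With the replicate block 0 genes were called (limma, smallest adjusted p 0.167).

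Of 2887 values of the 126 genes followed, 78 changed sign, in 18 genes whose log2 fold changes lay between -0.26 and 0.31 in the main test; TMM scaling shifts the median of all genes by -0.11, and other causes were not tested. With TMM scaling the reversed values were Edem1 -0.04, Cd74 -0.08, Mcl1 and Sdc1 -0.02, Itgb2 -0.03, Cd44, Txn1 and Cd93 -0.05, Fasn -0.10. With DESeq2 size factors the reversed values were Edem1, Cd44 and Cd93 -0.05, Cd74 -0.08, Mcl1 and Itgb2 -0.03, Txn1 -0.06, Fasn -0.11, Sdc1 -0.02. With limma-voom on recovered reads the reversed values were Edem1 -0.04, Cd74 -0.07, Mcl1 and Sdc1 -0.02, Itgb2 -0.03, Cd44, Txn1 and Cd93 -0.05, Fasn -0.12. With edgeR quasi-likelihood on recovered reads the reversed values were Edem1 and Txn1 -0.04, Cd74 -0.08, Mcl1, Lyz2 and Sdc1 -0.02, Itgb2 -0.03, Cd44 and Cd93 -0.05, Fasn -0.09. With DESeq2 on recovered reads the reversed values were Edem1, Cd44 and Txn1 -0.05, Cd74 -0.09, Mcl1 and Sdc1 -0.02, Itgb2 and Lyz2 -0.03, Fasn -0.10, Cd93 -0.06. After leaving out the most abundant features the reversed values were Edem1 -0.02, Cd74 -0.05, Itgb2 -0.01, Cd44, Txn1 and Cd93 -0.03, Fasn -0.08. With library quality weights the reversed values were Srebf1 0.03, Lyz2 -0.11. Leaving out 1 library gave ranges of -0.43 to 0.55 (C1qb), -0.11 to 0.47 (Ccr10), -0.03 to 0.16 (Cd74), 0.00 to 0.13 (Cd93), -0.18 to 0.19 (Fasn), -0.23 to 0.01 (H2-Eb1), -0.33 to 0.83 (Lyz2), -0.78 to 0.06 (Mki67), -0.14 to 0.10 (Mzb1), -0.18 to 0.05 (Prdx4), -0.24 to 0.20 (Srebf1), -0.23 to 0.04 (Top2a).

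Of 804 list medians relative to all genes, 35 moved by more than 1 SD between libraries. With library quality weights they were 0.03 (cell cycle), 0.07 (heat shock), 0.06 (lysosome), 0.07 (metallothionein and antioxidant) and -0.02 (sex-linked). With edgeR and with DESeq2 they were -0.07 (ATF4 targets) and 0.38 (inhibitory receptors), with limma-voom 0.28 (T and NK cell) and 0.33 (pro-B and pre-B), with the 6 libraries alone -0.37 (stroma) and 0.24 (pro-B and pre-B), and with a mean of at least 1 CPM 0.53 (pro-B and pre-B). Leaving out 1 library gave -0.07 to 0.00 (ATF4 targets), -0.15 to 0.22 (B cell), 0.01 to 0.53 (T and NK cell), -0.09 to 0.05 (adhesion), -0.06 to 0.06 (autophagy), -0.28 to -0.07 (cell cycle), 0.03 to 0.22 (dendritic cell), -0.02 to 0.07 (glycolysis), 0.05 to 0.17 (heat shock), 0.17 to 0.49 (inhibitory receptors), -0.02 to 0.17 (interferon response), -0.03 to 0.11 (metallothionein and antioxidant), 0.03 to 0.22 (sex-linked) and -0.07 to 0.10 (sterol and fatty acid). Values in CPM cannot show a change of total RNA per cell.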

Other observations

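Ddx3y, a Y-linked gene, was present in all 6 unmarked libraries, with 68.9, 65.1 and 59.1 CPM at day 270 and 54.9, 47.8 and 41.7 CPM at day 60 (log2 fold change 0.42 ± 0.19, limma adjusted p 1). Sema3f, a secreted guidance protein of the semaphorin family, had 7.27, 6.74 and 13.3 CPM at day 270 and 1.32, 1.29 and 0.688 CPM at day 60, and Cpq, a secreted carboxypeptidase, had 142, 198 and 186 CPM at day 270 and 118, 96.2 and 78.4 CPM at day 60. Sdc3, which encodes syndecan-3, had 74.3, 119 and 104 CPM at day 270 and 72.1, 39.4 and 26.9 CPM at day 60, and B3galnt1, a glycosyltransferase of globoside synthesis, had 35.0, 44.2 and 43.3 CPM at day 270 and 36.0, 9.19 and 15.8 CPM at day 60. In Sdc3 and B3galnt1 library 1 of day 60 was close to the day 270 libraries, while Sema3f and Cpq were apart between days in all libraries. The days of B3galnt1 overlapped, and those of Sdc3 overlapped with TMM scaling. These 4 genes were chosen after their values were seen. Egr3, an immediate early transcription factor, had 4.33, 10.8 and 2.53 CPM at day 270 and 0.965, 0.859 and 0.482 CPM at day 60, likewise chosen after the fact. Erythroid markers summed to 41.0, 174 and 164 CPM at day 270 and 47.4, 74.1 and 69.1 CPM at day 60, so that library 1 of day 270 held less of them than every library of day 60.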
